A study of Rattus norvegicus with 32 samples.

Results

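The methionine and folate one-carbon cycle was followed in the rat hippocampus through 9 genes, Mtr (ENSRNOG00000017593), Mtrr (ENSRNOG00000017826), Mat2a (ENSRNOG00000013520), Mat2b (ENSRNOG00000003177), Ahcy (ENSRNOG00000017777), Ahcyl1 (ENSRNOG00000018569), Shmt1 (ENSRNOG00000005275), Shmt2 (ENSRNOG00000008106) and Mthfd1 (ENSRNOG00000005602). They were chosen by symbol for their place in the cycle, 9 of the 32883 genes counted. The choice used none of their values, but earlier results of these data were known when it was made. Hippocampal RNA of 32 Sprague-Dawley rats was sequenced at P65, from 16 males in sequencing batch I and 16 females in sequencing batch II, so that each of 4 diet groups held 4 males and 4 females. The groups were iron sufficient rats (IS, the control), iron sufficient rats with choline (ISch), iron deficient rats (FID, for formerly iron-deficient) and iron deficient rats with choline (FIDch). As the study's methods describe for the males, iron was withheld through the mother's diet from early gestation into the first postnatal week. By the same methods, choline was added to that diet in mid to late gestation. The males, controls included, had thus been fed enough iron for weeks by P65, and the schedule of the females is not described there. The methods state a single male per litter in each experiment, but the study took its RNA data from earlier work. The labels name no litters, so whether these rats shared any is not known. Sex, sequencing batch and RNA isolation kit differ together and cannot be told apart, so diets were compared within each sex.

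The folate cycle takes single carbon units from serine and the methionine cycle uses them for methylation. Mtr, the cobalamin-dependent methionine synthase, passes a methyl group from folate to homocysteine, and Mat2a and Mat2b make S-adenosylmethionine from the methionine. Ahcy clears S-adenosylhomocysteine, the inhibitory product that each methyl transfer from S-adenosylmethionine leaves behind. Choline is a second source of methyl groups through betaine, and S-adenosylmethionine is the donor for DNA and histone methylation in the brain.

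Mtr and Mat2b were each called in 1 comparison of male diet groups by the rule given below, with adjusted p-values of 0.472 and 0.121 in edgeR's test. Over all comparisons, 3.92% of member values were called, against 9.87% over all genes. The start regions of Mtr and Mat2b, picked for these calls, are shown with that of Shmt2, which shares a motif with Mtr. They are the 250 bases before the transcription start in RefSeq assembly GRCr8, written 5′ to 3′ on the gene's strand, at chr17:62911528-62911777 (plus strand) for Mtr, chr10:25622770-25623019 (minus strand) for Mat2b and chr7:65249568-65249817 (minus strand) for Shmt2. Capitals mark matches, on either strand, to GGGCGG (GC box), CCAAT (the CCAAT box), to CCGGAAG (ETS core) or to ACTACANNT (the start of the ZNF143 motif, searched for after the sequences had been read).
Mtr: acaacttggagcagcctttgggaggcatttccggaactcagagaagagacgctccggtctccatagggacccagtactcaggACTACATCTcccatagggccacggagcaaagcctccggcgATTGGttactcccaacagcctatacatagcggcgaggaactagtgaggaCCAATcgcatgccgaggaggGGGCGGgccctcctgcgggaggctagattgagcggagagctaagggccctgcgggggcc
Mat2b: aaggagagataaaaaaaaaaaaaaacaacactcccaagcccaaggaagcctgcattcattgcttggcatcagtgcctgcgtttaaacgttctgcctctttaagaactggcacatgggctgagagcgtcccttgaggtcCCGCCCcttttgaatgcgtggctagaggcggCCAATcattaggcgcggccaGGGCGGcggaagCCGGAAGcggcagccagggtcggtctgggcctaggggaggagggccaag
Shmt2: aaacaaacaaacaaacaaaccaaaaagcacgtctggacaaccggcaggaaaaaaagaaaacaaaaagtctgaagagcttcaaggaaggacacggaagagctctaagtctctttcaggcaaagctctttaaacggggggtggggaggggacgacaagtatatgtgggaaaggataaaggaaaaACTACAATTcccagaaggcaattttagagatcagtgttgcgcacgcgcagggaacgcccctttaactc
Mtr held 1 GGGCGG, 2 CCAAT and 1 ACTACANNT, Mat2b held 2 GGGCGG, 1 CCAAT and 1 CCGGAAG, and Shmt2 held the ACTACANNT alone. Of 33469 rat promoters of the same length, 30.5% held GGGCGG, 34.0% CCAAT, 7.27% CCGGAAG and 3.71% ACTACANNT. Entries were found for 8 of the 9 members. Their CpG counts ran from 9 in Shmt2 and 13 in Mat2b to 25 in Mtrr and 29 in Mat2a, against a median of 5 over all promoters. No methylation or binding was measured in these data, and a match is only a description of the letters.

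Counts per gene totalled 3515806 to 9517503 per male library (median 8007907) and 18439999 to 26616318 per female library (median 21747536.5). Levels are given as CPM, a gene's counts scaled to the library's total, after TMM normalization over the 16 libraries of a sex. Gene lengths were not at hand, so levels are compared between diets for 1 gene and not between genes. The shallowest library, male FIDch replicate 2, held 10 counts of Shmt1 and 73 of Mtr, while every other member had at least 80 there. Marker genes of hippocampal neurons summed to 5587 to 7165 CPM in each library, with all 7 of them present. Male FID replicate 4 stood apart with 401 CPM of 7 choroid plexus markers, against 2.61 to 18.3 CPM in every other library. None of the member calls below that involve the male FID group was lost without it. Female FIDch replicate 4 was farther from its group than any other library, with a chi-square per gene of 22.4 to 25.2 against its group mates, which were at 5.35 to 6.87 among themselves. Without it the adjusted p of the female FIDch against FID differences given below stayed under 0.05 for Slc25a32 (0.00507), Aldh1l1 (0.0167) and Ahcyl2 (0.0122), Mat2a had a log2 fold change of 0.11 (unadjusted p 0.0130), and 2 member sex differences were lost, as given with them. Bulk RNA cannot tell fewer cells of a type from less RNA per cell.

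**Figure D1:**
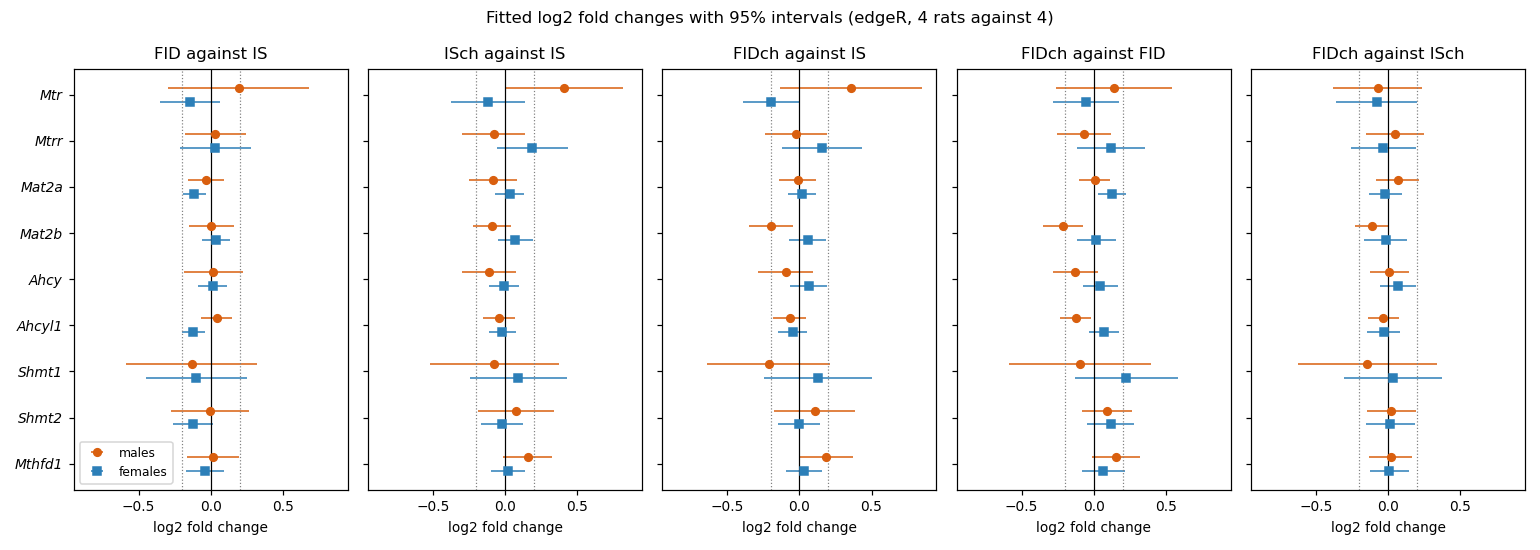
Fitted log2 fold changes of the 9 members (horizontal axis) in 5 comparisons of diet groups, males as circles and females as squares, 4 rats against 4, with 95% intervals from edgeR's fit. Dotted lines mark a log2 fold change of 0.2 either way. Most points lie between them, and Mtr and Shmt1 in males have the widest intervals.

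Across all comparisons the 9 genes differed little between diets. A gene was called by the rule that the study used, a log2 fold change beyond 0.2 either way and an unadjusted p under 0.05, here in edgeR's quasi-likelihood test, and this is the criterion named below. All 9 members passed the filter on low counts in all 17 comparisons, which gave 153 values, and 6 of these (3.92%) met the criterion against 9.87% of the values of all genes tested. Without the fold limit, 13 of the 153 passed the p limit (8.5%), against 12.7% of all values. None of the 153 had an adjusted p under 0.05 when edgeR's p-values were adjusted by Benjamini and Hochberg over all genes, and the smallest was 0.121. Such a p was rare over all genes too, held by 0% to 2.88% of them in a comparison. DESeq2 called the same members at the criterion in all 17 comparisons. These comparisons share libraries and are not independent of each other. Where groups are said below not to overlap, the share of all genes that did the same was not computed.

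The fits also bound how large a difference could have been. In the males, 38 of 45 intervals of the members, 9 genes in 5 comparisons of diet groups, lay within a 1.5-fold change either way, and 22 lay within 1.2-fold. The 7 wider ones belonged to Mtr and Shmt1. In the females all 45 lay within 1.5-fold and 29 within 1.2-fold. The intervals of Mat2a and Ahcyl1 lay within 1.2-fold in all 5 comparisons in both sexes. The median standard error of a member's log2 fold change was 0.083 in males and 0.061 in females.

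Within the males, 0 of 9 members met the criterion in FID against IS, where 4.62% of all genes did, and their median log2 fold change was 0.02 against -0.01 over all genes. In ISch against IS Mtr was higher, 1 of 9 members against 8.06% of genes. No member met it in FIDch against IS, where 6.12% of genes did, although Mat2b missed by the fold limit alone. Mat2b was lower in FIDch against FID, 1 of 9 members against 13.0% of genes. FIDch against ISch gave 0 of 9 members and 8.12% of genes. In the 3 comparisons with no member at the criterion, the members' unadjusted p was under 0.05 for 0, 1 and 0 genes respectively, the 1 being Mat2b in FIDch against IS. The shares of all genes with such a p there were 5.68%, 7.89% and 13.6%.

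Among females, no member met the criterion in any of the 5 comparisons. The shares of all genes that did were 6.47% in FID against IS, 10.3% in ISch against IS, 8.98% in FIDch against IS, 12.7% in FIDch against FID and 4.57% in FIDch against ISch. Without the fold limit, edgeR's unadjusted p was under 0.05 for Mat2a and Ahcyl1 in FID against IS and for Mat2a in FIDch against FID. These were 2 and 1 of 9 members, where 11.2% and 18% of all genes had such a p. In FIDch against FID, 8 of the 9 members had a positive log2 fold change, with a median of 0.07 against -0.00131 over all genes, where 49.7% were positive. In FID against IS only 3 of 9 were positive, with a median of -0.10. Both comparisons use the same FID rats.

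Mtr, which regenerates methionine from homocysteine, had the member values that differed most between male rats. In male IS, Mtr was at 7.82, 13.2, 17.9 and 11.1 CPM in replicates 1 to 4. In male ISch it was at 17.8, 16.2, 15.5 and 16.5 CPM. In IS, 3 of the 4 rats lay below all ISch rats and replicate 3 lay above all of them, so the groups overlapped. The means were 12.5 ± 4.21 CPM in IS and 16.5 ± 0.944 CPM in ISch (SD, n = 4 each), a log2 fold change of 0.41 (SE 0.19, 95% interval 0.00 to 0.82). Mtr met the criterion in this comparison with an unadjusted p of 0.0488, an adjusted p of 0.472 in edgeR's fit over all genes, and p = 0.143 in a two-sided exact permutation test of 4 rats against 4, which can go no lower than 0.029. The call was lost without IS replicate 1 (log2 fold change 0.23), IS replicate 2 (0.44), IS replicate 4 (0.36) or any ISch library in turn (0.37, 0.42, 0.44 and 0.41 without replicates 1 to 4), and it held in 6 of 15 alternatives. In male FID, Mtr was at 15.4, 9.87, 15.9 and 16.1 CPM, and in male FIDch at 11.7, 20.6, 14.4 and 18.5 CPM. All FID rats lay inside the range of the IS rats, and so did the FIDch rats apart from replicates 2 and 4, which lay above it. Their log2 fold changes against IS were 0.20 (-0.29 to 0.68) for FID and 0.36 (-0.14 to 0.85) for FIDch, which met the criterion only without IS replicate 3.

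In the females the highest mean of Mtr was that of IS, the lowest group in males. It was at 11.8, 12.3, 11.1 and 12.6 CPM in female IS and at 12.9, 9.30, 12.2 and 9.68 CPM in female ISch. Female FID had 12.5, 9.47, 10.8 and 10.5 CPM and female FIDch had 10.7, 11.3, 10.6 and 9.22 CPM. Each of these 3 groups overlapped IS, and 3 of the 4 FIDch rats lay below every IS rat. Against IS, the log2 fold change was -0.14 in FID, -0.12 in ISch and -0.19 in FIDch (95% interval -0.39 to 0.00, unadjusted p 0.0535). RefSeq places a long noncoding RNA, LOC120097915, and a coding gene, LOC120097928, over Mtr, and since the strand setting of the counting is not stated, reads shared with them cannot be separated.

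Mtrr encodes the reductase that returns the cobalamin of methionine synthase to its active form, and it varied little in the males. It was at 22.4, 21.7, 26.2 and 22.6 CPM in male IS and at 23.2, 23.1, 22.8 and 18.9 CPM in ISch. Male FID had 23.4, 21.8, 24.3 and 25.6 CPM, and FIDch had 21.5, 22.6, 22.4 and 24.9 CPM. The 4 male groups overlapped throughout, and 4 of the 5 intervals lay within 1.2-fold. In female IS, Mtrr was at 15.8, 23.0, 20.7 and 17.9 CPM, and in ISch at 19.7, 23.5, 24.1 and 21.4 CPM. The groups overlapped, with a log2 fold change of 0.19 (SE 0.11, unadjusted p 0.122). Female FID (19.8 ± 2.17 CPM, SD, n = 4) and FIDch (21.6 ± 2.75 CPM) lay between these means. Mtrr overlaps Fastkd3 in RefSeq, with the same limit on shared reads.

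**Figure D2:**
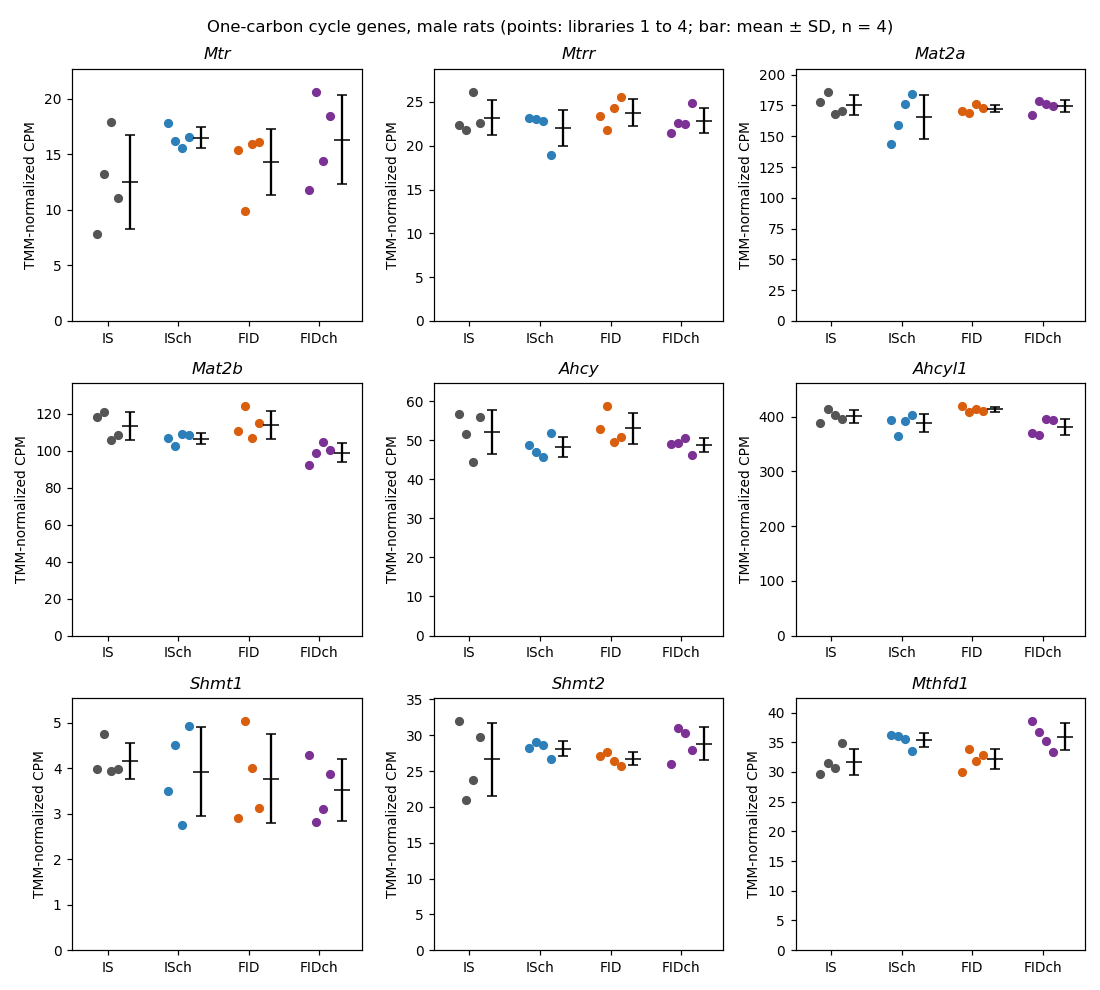
TMM-normalized levels of the 9 members in each of the 16 male libraries (CPM, one panel per gene with its own axis), by diet group, with the group mean and SD (n = 4). Mat2b in FIDch (92.0 to 105 CPM) lies below all FID and IS rats, and Mtr is spread from 7.82 to 17.9 CPM within IS. The share of all genes separated as Mat2b is was not computed.

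Mat2b, the regulatory partner of the S-adenosylmethionine synthetase Mat2a, was the member with the clearest difference in males, and it was lower in the FIDch rats. It was at 118, 121, 106 and 108 CPM in male IS and at 111, 124, 107 and 115 CPM in male FID. In male FIDch it was at 92.0, 98.6, 105 and 100.1 CPM, below every IS and every FID rat. Male ISch lay between, at 107, 102, 109 and 108 CPM, and overlapped FIDch. How many of all genes separated male groups in this way was not computed.

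Against FID, Mat2b fell in FIDch by 0.21 on the log2 scale (SE 0.065, 95% interval -0.35 to -0.07), from 114 ± 7.49 to 98.8 ± 5.20 CPM (SD, n = 4). The unadjusted p was 0.00569 and the adjusted p 0.121, with 0.0938 to 0.357 over the alternatives, and the exact permutation p was 0.029, the smallest that 4 against 4 can give. The unadjusted p stayed under 0.05 in all 15 alternatives, while the log2 fold change came within the limit of 0.2 without FID replicate 2 (-0.16) or FIDch replicate 1 (-0.17). Against IS, the log2 fold change in FIDch was -0.20 (SE 0.071, 95% interval -0.35 to -0.04, unadjusted p 0.0163), just inside the fold limit. It was past the limit without IS replicate 3 (-0.23), IS replicate 4 (-0.22), FIDch replicate 3 (-0.23) or FIDch replicate 4 (-0.20). Without IS replicate 2 or FIDch replicate 1 the unadjusted p was 0.0526 and 0.0527. FID against IS gave 0.00, ISch against IS -0.09 and FIDch against ISch -0.11 (unadjusted p 0.0568). The 2 comparisons with FIDch that show the lower level use the same 4 FIDch rats.

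Female Mat2b showed no such difference, with means of 103 ± 4.16 CPM for the IS rats, 108 ± 7.81 CPM for ISch, 105 ± 4.72 CPM for FID and 107 ± 7.51 CPM for FIDch (SD, n = 4). All 4 groups overlapped. FIDch against FID gave a log2 fold change of 0.02 and FIDch against IS 0.06, and all 5 female intervals lay within 1.2-fold.

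Mat2a, the catalytic subunit that forms S-adenosylmethionine, was lowest in the FID females. It was at 164, 157, 168 and 161 CPM in female IS and at 152, 154, 149.9 and 146 CPM in female FID. In female FIDch it was at 166, 158, 164 and 171 CPM. Every FID female lay below every IS and every FIDch female, and the share of all genes so separated was not computed. Female ISch (163, 164, 181 and 160.0 CPM) lay above all FID females too. FID against IS gave a log2 fold change of -0.11 (SE 0.037, 95% interval -0.19 to -0.03, unadjusted p 0.0095, adjusted p 0.278 by edgeR's test), and FIDch against FID gave 0.13 (SE 0.043, 0.03 to 0.22, unadjusted p 0.0137, adjusted p 0.154). Neither reached the fold limit, here or in any of the 14 alternatives, and the unadjusted p was under 0.05 in all of them. The exact permutation p was 0.029 in both, the value that any such separation of 4 against 4 gives. Both comparisons share the 4 FID rats.

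Male Mat2a did not follow that order. It was at 177.8, 186, 168 and 171 CPM in IS, 171, 169, 176 and 173 CPM in FID, and 168, 179, 176 and 175 CPM in FIDch. The 3 groups overlapped, with log2 fold changes of -0.03 for FID against IS and 0.01 for FIDch against FID. Male ISch was the most spread, from 144 to 184 CPM.

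**Figure D3:**
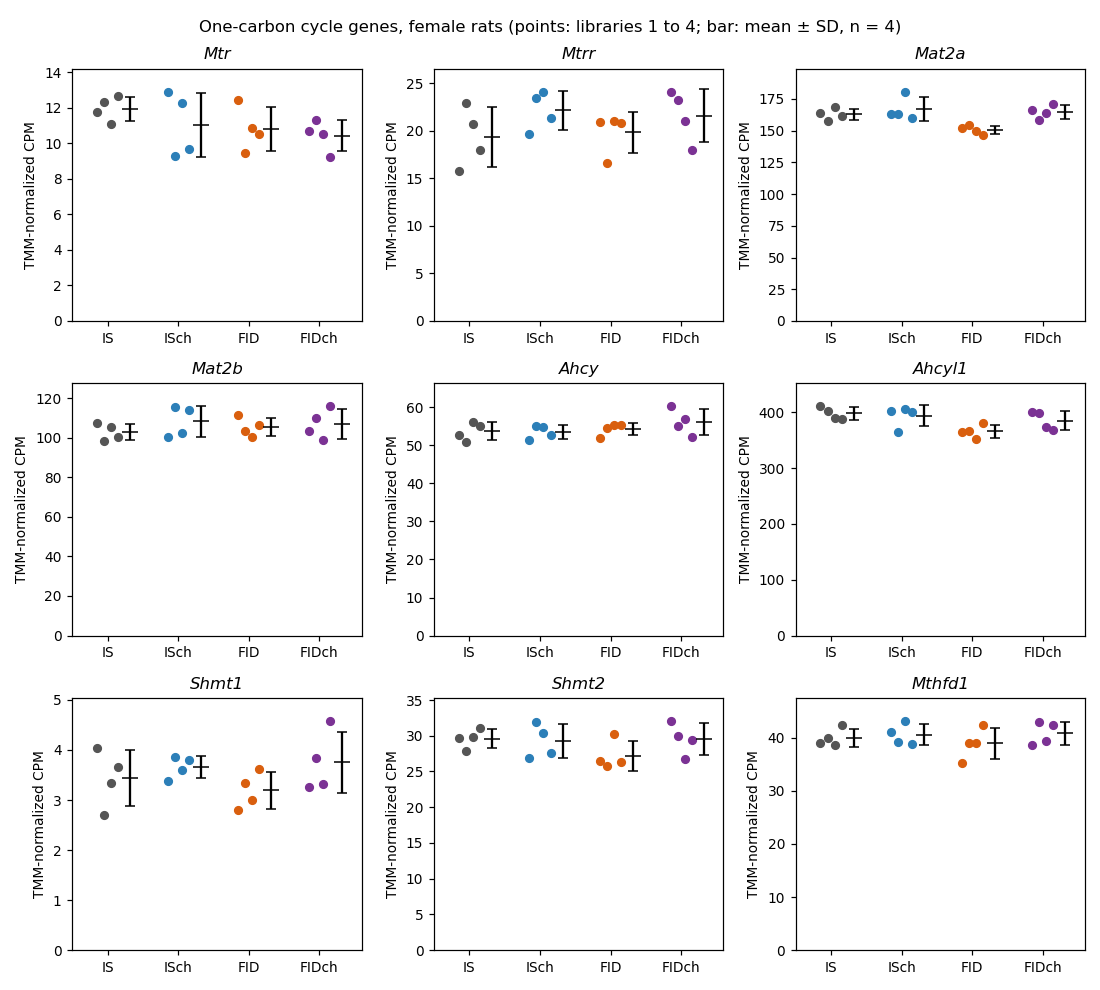
TMM-normalized levels of the 9 members in each of the 16 female libraries (CPM, one panel per gene with its own axis), by diet group, with the group mean and SD (n = 4). Mat2a (146 to 154 CPM) and Ahcyl1 (353 to 381 CPM) in FID lie below all IS rats. The share of all genes so separated was not computed.

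Ahcy, the hydrolase of S-adenosylhomocysteine, differed by less than the fold limit everywhere. Male IS had 56.7, 51.6, 44.4 and 55.9 CPM and male FID had 52.9, 58.7, 49.6 and 50.8 CPM. The choline groups were lower on average, ISch at 48.7, 47.1, 45.6 and 51.8 CPM and FIDch at 49.1, 49.2, 50.6 and 46.2 CPM. They overlapped the groups without choline, and the log2 fold changes were -0.11 for ISch against IS and -0.13 for FIDch against FID (unadjusted p 0.0969). The 16 females lay between 50.9 and 60.3 CPM, with group means from 53.5 ± 1.78 CPM in ISch to 56.1 ± 3.38 CPM in FIDch (SD, n = 4).

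Ahcyl1, a relative of Ahcy also known as IRBIT and best known for binding the inositol trisphosphate receptor, moved by small amounts with little spread between rats. In female IS it was at 411, 402, 389 and 389 CPM, and in female FID at 364, 366, 353 and 381 CPM, with no overlap. Female FIDch (400.4, 398, 374 and 368 CPM) and ISch (402, 365, 406 and 400.4 CPM) overlapped both. FID against IS gave a log2 fold change of -0.12 (SE 0.037, 95% interval -0.20 to -0.04, unadjusted p 0.00601, adjusted p 0.232), and FIDch against FID 0.07 (unadjusted p 0.156). The unadjusted p of the first was under 0.05 in all 14 alternatives, none of which reached the fold limit.

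Male Ahcyl1 had its highest mean in FID, at 419, 409, 414 and 409.9 CPM, against 388, 414, 403 and 396 CPM in IS. Male FIDch was at 370.4, 365, 395 and 393 CPM, below every FID rat, and ISch at 393, 365, 393 and 403 CPM. FIDch against FID gave -0.12 (SE 0.050, 95% interval -0.23 to -0.02, unadjusted p 0.0263, adjusted p 0.219), short of the fold limit. The unadjusted p passed 0.05 in 5 of 15 alternatives, among them without FID replicate 1 (0.0572), FIDch replicate 1 (0.0759) or FIDch replicate 2 (0.0592). FID against IS gave 0.04.

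Shmt1 and Shmt2, the cytosolic and mitochondrial hydroxymethyltransferases that load folate with a carbon from serine, did not differ between diets beyond the spread. Shmt1 rested on 10 to 48 counts per male library. It was at 3.97, 4.75, 3.94 and 3.99 CPM in male IS and at 4.29, 2.83, 3.10 and 3.87 CPM in male FIDch, and the log2 fold change of -0.21 had an interval of -0.64 to 0.22. Its interval reached past a 1.5-fold change in 4 of the 5 male comparisons. Its female counts ran from 57 to 102, and group means from 3.19 ± 0.367 CPM in FID to 3.75 ± 0.613 CPM in FIDch, a log2 fold change of 0.23 (-0.13 to 0.58, unadjusted p 0.191).

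Shmt2 was at 32.04, 21.0, 23.8 and 29.7 CPM in male IS, the widest of its groups. The other male groups had means of 28.2 ± 1.07 CPM in ISch, 26.7 ± 0.892 in FID and 28.8 ± 2.30 in FIDch (SD, n = 4), all within the IS range, and the largest log2 fold change between male groups was 0.11. In females the lowest mean was that of FID, at 26.4, 25.7, 30.3 and 26.4 CPM, against 29.6 ± 1.30 in IS, 29.2 ± 2.35 in ISch and 29.5 ± 2.21 in FIDch. FID against IS gave -0.12 (unadjusted p 0.0780). Shmt2 overlaps Ndufa4l2 in RefSeq, so reads shared with it cannot be separated.

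Mthfd1, the cytosolic enzyme that interconverts 3 forms of one-carbon folate, was higher on average in the male choline groups without meeting the criterion. It was at 29.7, 31.5, 30.7 and 34.9 CPM in male IS and at 36.3, 36.1, 35.6 and 33.6 CPM in ISch. Male FID had 29.9, 33.9, 31.9 and 32.8 CPM, and FIDch had 38.6, 36.7, 35.2 and 33.4 CPM. In each group with choline 3 of the 4 rats lay above all rats of its group without choline. ISch against IS gave 0.16 (unadjusted p 0.0651), FIDch against FID 0.15 (0.0718) and FIDch against IS 0.18 (0.0514), all under the fold limit. Mthfd1 met the criterion only when IS replicate 4 (both comparisons with IS) or FIDch replicate 4 (FIDch against IS) was left out. The females lay between 35.2 and 43.2 CPM, with means from 38.9 ± 2.98 CPM in FID to 40.8 ± 2.20 in FIDch.

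Whether choline acted differently after early iron deficiency was tested as the interaction (FIDch minus FID) minus (ISch minus IS). No member met the criterion in either sex, against 14.4% of all genes in males and 7.33% in females. The members' values ran from -0.26 for Mtr (SE 0.29) to 0.10 for Mat2a in males, and from -0.07 for Mtrr to 0.14 for Shmt2 in females. The smallest adjusted p was 0.541 in males and 0.682 in females. Mat2b, called in male FIDch against FID, had an interaction of -0.12 (95% interval -0.30 to 0.07), so its lower level with choline in FID rats was not shown to differ from that in IS rats.

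Effects were also compared between the sexes as the male minus the female log2 fold change, a difference that cannot be told apart from batch and kit. In FID against IS no member met the criterion (7.64% of genes did), and Ahcyl1 differed by 0.18 (SE 0.057, unadjusted p 0.00571). In ISch against IS, 1 of 9 members met it (14.2% of genes), Mtr at 0.53 (SE 0.24, 95% interval 0.04 to 1.03, unadjusted p 0.0360, adjusted p 0.281). In FIDch against IS, 2 of 9 members met it (12.9% of genes), Mtr at 0.55 (SE 0.26, 0.00 to 1.1, unadjusted p 0.0489) and Mat2b at -0.26 (SE 0.091, -0.45 to -0.07, unadjusted p 0.0108, adjusted p 0.214). In FIDch against FID, 1 of 9 members met it (17.7% of genes), Mat2b at -0.21 (SE 0.088, unadjusted p 0.0258), while Ahcyl1 had -0.18 (unadjusted p 0.0130). FIDch against ISch gave 0 of 9 members and 9.89% of genes.

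Mat2b kept its difference in FIDch against IS in all 21 alternatives, between -0.29 and -0.21. Its difference in FIDch against FID was lost without male FID replicate 2 (-0.17), male FIDch replicate 1 (-0.18) or female FIDch replicate 4 (-0.17). Mtr held in ISch against IS in 14 of 21 alternatives. It was lost without male IS replicate 1 (0.35) or 4 (0.48), male ISch replicate 1 (0.49), female IS replicate 2 (0.52) or 4 (0.50), or female ISch replicate 2 (0.46) or 4 (0.47). In FIDch against IS it held in 10 of 21. There it was lost without male IS replicate 1 (0.38), 2 (0.58) or 4 (0.50), male FIDch replicate 2 (0.45) or 4 (0.47), female IS replicate 1 (0.56), 2 (0.54) or 4 (0.52), or female FIDch replicate 1 (0.56), 3 (0.56) or 4 (0.50). Ahcyl1 in FIDch against FID passed the fold limit without female FID replicate 2 (-0.21) or 4 (-0.22).

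The spread between rats of 1 group set how small a difference could be seen, and it differed between the members. The biological coefficient of variation that edgeR fitted within groups was 18.3% for Mtr in males, higher than in 90.1% of the 14314 genes tested there and than in 96.3% of the 1000 genes nearest to it in level. In females it was 10.5%, near the median of 8.94% over all genes. Ahcyl1 had 4.99% in males and 4.71% in females, and Mthfd1 had 5.14% and 5.79%, all below the male median of 8.43%. Mtrr varied more in females (11.2%) than in males (6.66%). Shmt1 had the highest female value of the members, 12.6%, and 13.1% in males.

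**Figure D4:**
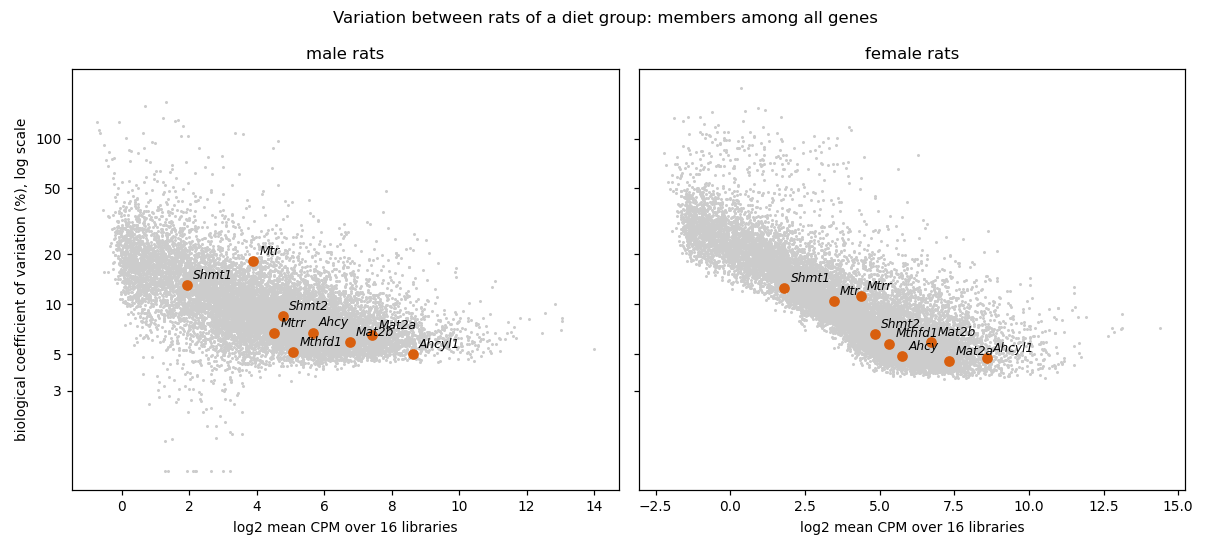
Biological coefficient of variation within diet groups (percent, vertical log axis) against the log2 of the mean CPM over 16 libraries (horizontal) for all genes tested in males and in females, grey, with the 9 members in orange. Mtr stands at 18.3% in males and 10.5% in females, and Ahcyl1 at 4.99% and 4.71%.

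Among the 12597 genes compared, those whose levels moved most closely with a member within groups were taken by the smaller of its male and female Pearson correlations, over 16 libraries of each sex after group means were removed. Odr4 (r 0.79 in males and 0.80 in females) was among the nearest to Mtr. Fkbp3 (0.82 and 0.79) and Ypel5 (0.79 and 0.84) were nearest to Mat2b, and Errfi1 (0.69 and 0.75) and Mcm8 (0.64 and 0.75) to Mat2a. For Mtrr these were Zbtb40 (0.77 and 0.68) and Mpdz (0.73 and 0.68), for Ahcy Daglb (0.70 and 0.67) and Tmem69 (0.82 and 0.63), and for Ahcyl1 Tmtc1 (0.70 and 0.76) and Map3k20 (0.67 and 0.72). Shmt1 was nearest to B4galt2 (0.71 and 0.77) and Wfs1 (0.76 and 0.67), Shmt2 to Phactr3 (0.64 and 0.68) and Rnf181 (0.76 and 0.63), and Mthfd1 to Stambp (0.62 and 0.63) and Gca (0.62 and 0.64). Between members, Ahcy and Shmt2 had the largest smaller value, 0.49 in males and 0.54 in females, while Mtr and Ahcy had -0.74 in males and -0.15 in females. These correlations are descriptions over libraries of 1 sex, which share a sequencing batch and RNA kit but differ in depth. The genes named are among the highest of 12597 for each member, which alone makes r large, and no chance level was computed.

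Of 59 other genes of one-carbon metabolism, listed by role, 48 to 54 were tested in each comparison. None had an adjusted p under 0.05 in the 5 male comparisons, where 0% to 1.28% of all genes did. At the criterion, 0 were higher and 4 lower of 49 tested in male FID against IS (4.62% of all genes met it), 1 and 4 of 48 in ISch against IS (8.06%), 3 and 2 of 48 in FIDch against IS (6.12%), 3 and 6 of 49 in FIDch against FID (13.0%), and 2 and 1 of 50 in FIDch against ISch (8.12%). Cbs, which diverts homocysteine to cysteine, was lower in FID than IS males, 60.3 ± 5.21 against 73.2 ± 4.80 CPM (SD, n = 4, log2 fold change -0.28, unadjusted p 0.00444). It was also lower in ISch males (-0.21, unadjusted p 0.0133), and its male interaction of iron and choline was 0.42 (unadjusted p 0.000909). These Cbs values all use the same 4 IS rats and are not independent. Fpgs, which adds glutamates to folate and keeps it in the cell, was lower in male FID than IS (-0.46, unadjusted p 0.00816) and higher in FIDch than FID (0.46, unadjusted p 0.00716). Both Fpgs values use the same 4 FID rats. Dld, the shared dehydrogenase of glycine cleavage, was lower in FIDch than FID males, 152 ± 4.59 against 179 ± 7.54 CPM (-0.24, unadjusted p 0.000675).

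Aldh1l1 was lower in FID than IS males (-0.23, unadjusted p 0.0297). Mri1 of the methionine salvage route (-0.41, unadjusted p 0.00319) and Phgdh, which opens serine synthesis (-0.29, unadjusted p 0.00513), were lower in ISch than IS. Gamt, which uses S-adenosylmethionine to make creatine, was higher in FIDch than in FID males (0.33, unadjusted p 0.00210) and IS males (0.22, unadjusted p 0.0245), and in the latter comparison so were Sardh (0.30) and Apip (0.30). Both Gamt values use the same FIDch rats. FIDch against ISch gave Lmbrd1 lower (-0.22) and Adi1 (0.29) and Mri1 (0.24) higher. In the male interaction 6 genes were positive and 1 negative of 50 tested, where 14.4% of all genes met the criterion, with Fpgs at 0.61 and Mri1 at 0.46 after Cbs. Several of these calls were lost when single libraries were left out. Cbs in ISch against IS was lost without IS replicate 1 (-0.18) or ISch replicate 4 (-0.17), Aldh1l1 without IS replicate 3 (-0.19) or 4 (-0.22) or FID replicate 2 (-0.18), Gamt against IS without IS replicate 2 (0.17) or FIDch replicate 1 (0.18), Sardh without IS replicate 2 (0.27) or FIDch replicate 1 (0.22), and Lmbrd1 without FIDch replicate 1 (-0.19) or 4 (-0.17). Apip was lost without IS replicate 1 (0.30), 2 (0.29) or 4 (0.27) or FIDch replicate 1 (0.29), 2 (0.26) or 4 (0.29), Adi1 without ISch replicate 3 (0.24) or 4 (0.21) or FIDch replicate 2 (0.26) or 4 (0.29), and Mri1 in FIDch against ISch without ISch replicate 1 (0.19) or 2 (0.25) or FIDch replicate 1 (0.18), 3 (0.24) or 4 (0.23).

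In the females 6 values of other pathway genes had an adjusted p under 0.05. In ISch against IS, where 2.54% of all genes did, Gamt fell by 0.45 on the log2 scale. Gamt was at 29.1, 26.4, 29.1 and 26.8 CPM in IS and at 19.7, 20.3, 20.2 and 21.3 CPM in ISch, with no overlap (adjusted p 0.00445 by edgeR's test, 2.15e-06 to 0.0470 over the alternatives). Phgdh fell by 0.41, from 93.8 ± 6.93 to 70.5 ± 6.17 CPM (adjusted p 0.0159, with 1.50e-05 to 0.0563 over the alternatives, the highest without ISch replicate 4). Aldh1l1, the cytosolic 10-formyltetrahydrofolate dehydrogenase, rose by 0.36, from 21.7 ± 1.23 to 27.8 ± 1.78 CPM (adjusted p 0.0215, with 0.000705 to 0.0980 over the alternatives). The adjusted p of Aldh1l1 was above 0.05 in 6 of 14, among them without IS replicate 2 (0.0764), 3 (0.0531) or 4 (0.0654) or ISch replicate 2 (0.0572) or 3 (0.0560). At the criterion 3 of the 52 tested were higher and 2 lower, where 10.3% of all genes met it.

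In female FIDch against FID, where 2.28% of all genes had an adjusted p under 0.05, the 3 other pathway genes that did were all higher in FIDch. Slc25a32, the mitochondrial folate carrier, rose by 0.58 on the log2 scale, from 9.09, 9.62, 8.32 and 9.43 CPM in FID to 14.4, 12.5, 15.9 and 11.9 CPM in FIDch (adjusted p 0.0225 by edgeR's test, 0.000239 to 0.0682 over the alternatives). Aldh1l1 rose by 0.36, from 20.4, 20.1, 19.2 and 22.2 CPM to 28.7, 24.4, 27.1 and 25.2 CPM (adjusted p 0.0346, 0.00248 to 0.104). Ahcyl2, the closest relative of Ahcyl1, rose by 0.24, from 194 ± 8.61 to 229 ± 11.1 CPM (SD, n = 4, adjusted p 0.0348, 0.000988 to 0.120). None of the 3 overlapped between the groups. They were named for their p in these same libraries, and the share of all genes without overlap was not computed. At the criterion 9 of the 52 tested were higher and 2 lower, where 12.7% of all genes met it. The adjusted p passed 0.05 in 6 of 14 alternatives for Slc25a32 and 7 of 14 for Aldh1l1 and for Ahcyl2, in each gene once with the replicate number as a block and otherwise when a single library was left out. For Slc25a32 these libraries were the 4 FID ones and FIDch replicate 1 (0.0597 to 0.0682), for Aldh1l1 the 4 FID ones and FIDch replicates 1 and 3 (0.0527 to 0.104), and for Ahcyl2 the 4 FID ones and FIDch replicates 1 and 2 (0.0605 to 0.120).

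Aldh1l1 is an astrocyte enzyme, and 7 other astrocyte markers summed to 5347 to 5687 CPM in female IS and 5602 to 6151 CPM in ISch, and to 5113 to 5483 CPM in FID and 5447 to 5675 CPM in FIDch. The median log2 fold change of these 7 was 0.11 in ISch against IS and 0.06 in FIDch against FID. At the criterion 0 of 7 differed in the first (10.3% of all genes did). In the second 1 was higher and 0 lower (12.7%), and 1 had an adjusted p under 0.05 (2.28%). Slc1a2 went the other way in the second, from a mean of 362 to 311 CPM. The part of these markers in the Aldh1l1 result was not tested. The remaining female comparisons, each with 52 genes tested, gave 1 gene higher and 2 lower in FID against IS (6.47% of all genes met the criterion), 5 and 2 in FIDch against IS (8.98%), and 2 and 0 in FIDch against ISch (4.57%). They included Gldc (-0.23, unadjusted p 0.00185), Slc25a32 (-0.27, unadjusted p 0.00815) and Pemt (0.37, unadjusted p 0.0321) in FID against IS. This Slc25a32 value uses the same FID rats as its difference in FIDch against FID. In FIDch against IS, Aldh7a1 (0.26, unadjusted p 0.000477), Aldh1l1 (0.28) and Ggh (0.21) were higher, and in FIDch against ISch Mmadhc (0.22) and Apip (0.25). The female interaction had 3 positive and 0 negative genes of 54 tested (7.33% of all genes met the criterion), Slc25a32 (0.35), Gamt (0.27) and Ggh (0.20). Lost with single libraries left out were Gldc (-0.20 without FID replicate 1), Pemt (0.35 and 0.33 without IS replicate 2 or 3, 0.31 and 0.30 without FID replicate 2 or 3), Ggh in FIDch against IS (0.20 and 0.19 without IS replicate 3 or 4), Mmadhc (0.19 without ISch replicate 4, 0.18 without FIDch replicate 4), Apip (0.21 and 0.23 without ISch replicate 2 or 4, 0.23 and 0.21 without FIDch replicate 2 or 3) and, in the interaction, Gamt (0.18 without FIDch replicate 4) and Ggh (0.16 to 0.20 without IS replicate 1 or 2, ISch replicate 1 or 4, FID replicate 1 or 2, or FIDch replicate 2 or 4).

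**Figure D5:**
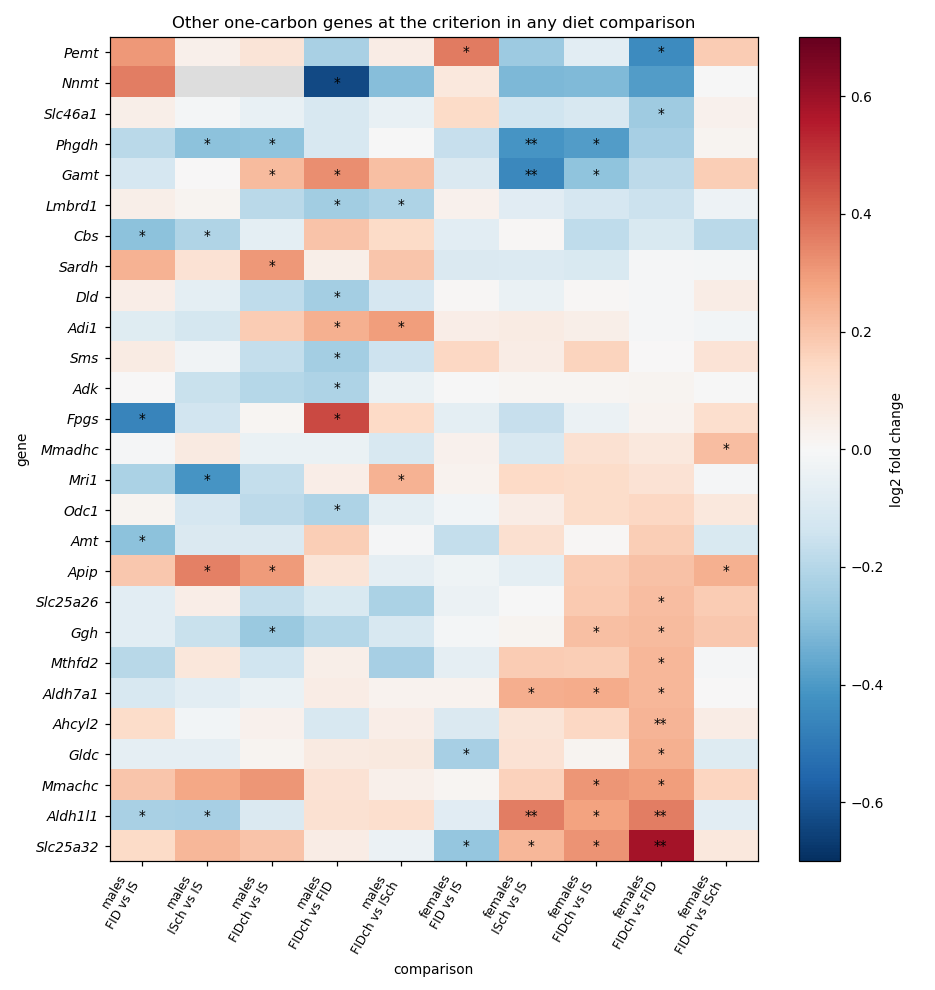
Log2 fold changes of 27 other one-carbon genes (rows) in the 5 diet comparisons of each sex (columns), coloured from lower (blue) to higher (red) with the scale ending at 0.7 either way and grey where not tested. A single asterisk marks the criterion and a double one an adjusted p under 0.05 as well, which only Gamt, Phgdh, Aldh1l1, Slc25a32 and Ahcyl2 have, all in females.

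Sex differences past an adjusted p of 0.05 were found for 3 of these genes. In ISch against IS, where 1.28% of all genes had such a p, Aldh1l1 differed by -0.59 (SE 0.11, adjusted p 0.0121 by edgeR's test). In FIDch against FID, where 2.88% did, Ahcyl2 differed by -0.34 (SE 0.073, adjusted p 0.0214) and Gamt by 0.53 (SE 0.13, adjusted p 0.0314, 0.00479 to 0.0858 over the alternatives). The Ahcyl2 value was 0.0540 without male FIDch replicate 4. The Gamt value was above 0.05 in 9 of 21 alternatives, without male FID replicate 3 (0.0562) or 4 (0.0599, the library with choroid plexus markers), male FIDch replicate 1 (0.0814) or 4 (0.0580), female FID replicate 1 (0.0578), 3 (0.0858) or 4 (0.0715), or female FIDch replicate 1 (0.0851) or 2 (0.0585). At the criterion alone, the 3 smallest p in FID against IS were those of Ahcyl2 (0.25), Slc25a32 (0.42) and Sardh (0.36), in FIDch against IS those of Gamt (0.50), Ggh (-0.48) and Odc1 (-0.31), and in FIDch against ISch those of Cbs (0.34), Mmadhc (-0.31) and Ggh (-0.28). Without 1 library the call was lost for Ahcyl2 (0.19, male IS replicate 1), Sardh (0.31 and 0.29, male IS replicate 2 or FID replicate 3) and Ggh in FIDch against ISch (-0.22, male FIDch replicate 1).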

How the data were processed

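Total RNA of whole hippocampus was sequenced from TruSeq libraries, isolated with an RNAqueous kit in males and an RNeasy kit in females. Per the submitters' notes and the study's methods, the authors trimmed reads with Trimmomatic, aligned them with HISAT2 to Rnor_6.0 and deposited raw counts per gene from featureCounts (Subread), 1 table per sex. Strand and multi-mapping settings are not given in the sources used here, and the methods describe the males.

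Groups came from the diet and sex labels. Tests used edgeR 4.0.16 under R 4.3.3 (TMM, filterByExpr, glmQLFit and glmQLFTest), each pair of groups fitted apart, as the study did. A call needed a log2 fold change beyond 0.2 either way with p below 0.05 before adjustment, with Benjamini-Hochberg values over all genes beside it. Intervals are 95% and cover the fit's error. Levels are CPM. The study's methods state a single male per litter in each experiment, but its RNA data came from earlier work. The labels say only that the rats of both sexes are separate samples, and p-values measure only the spread between these samples. Counting noise alone does not account for replicate differences, since the chi-square per gene was 2.02 to 14.3 in 45 pairs and 22.4 to 25.2 in the 3 with female FIDch replicate 4, and no library was taken as a repeat. A count of 0 allows up to 0.314 to 0.848 CPM in males and 0.113 to 0.163 CPM in females (3 counts, counting error only).

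All 9 members were named in every comparison. Of 59 other pathway genes, those with an adjusted p under 0.05 were named, and otherwise up to 3 at the criterion with the smallest p. For each member, the 2 genes of most like pattern were named, apart from 1 that is not reported here. The members and lists were chosen with earlier results of these data known. Scripts were tested on simulated data. The alternatives were DESeq2 1.42.0, RLE size factors, other filters, 1 fit of all groups, a replicate block, leaving out male ISch and FIDch libraries named in another form, and leaving out each library. Replicate numbers were checked for pairing by correlation and showed no clear one, a check that cannot exclude weak pairing. Promoters came from RefSeq GRCr8, and the counts' own build was not used for coordinates.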

Additional observations from a re-analysis of the deposited data

Results flagged for a closer look

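In 7 of 72 groups of 4 rats, 9 members in 8 groups, the value at one end stood apart from the other 3 by Dixon's 95% limit, a test that by chance marks about 1 in 20 such groups. These were the lowest Mtr value in male FID (replicate 2, 9.87 CPM), the lowest Mtrr values in male ISch (replicate 4, 18.9 CPM) and female FID (replicate 2, 16.6 CPM), and the lowest Ahcyl1 value in female ISch (replicate 2, 365 CPM). The highest values so marked were Mat2a in female ISch (replicate 3, 181 CPM), Shmt1 in male IS (replicate 2, 4.75 CPM) and Shmt2 in female FID (replicate 3, 30.3 CPM). The 7 values come from 7 gene and group pairs.

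Effects that differed between males and females, by the test of the difference itself, are given as male minus female log2 fold change. Mtr differed by 0.53 in ISch against IS and by 0.55 in FIDch against IS. Mat2b differed by -0.26 in FIDch against IS and by -0.21 in FIDch against FID. None of these 4 had an adjusted p under 0.05. Of the other pathway genes, Aldh1l1 differed by -0.59 in ISch against IS, and Ahcyl2 by -0.34 and Gamt by 0.53 in FIDch against FID, each with an adjusted p under 0.05. Sex cannot be told apart from sequencing batch and RNA kit.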

How the results depend on the processing

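Of 292 counts of members at the criterion under alternatives, 247 stayed within 1.5 times the reported count and 45 moved, and of 292 counts at an adjusted p under 0.05, 291 stayed. No direction reversed among the called and named values that were recomputed, and member values near 0 were not recomputed one by one. In male ISch against IS the count of 1 was 0 in the fit of all 4 groups and without the libraries named in another form. In male FIDch against IS the count of 0 was 1 with all genes of at least 1 count (Mat2b). With the replicate block, female ISch against IS gave 1 (Mtrr) and the sex difference in ISch against IS gave 2 (Mtr and Mtrr), against 0 and 1 without it. The block changed no other member count at the criterion by over 1.5 times. Among other pathway genes it put the adjusted p above 0.05 for female Aldh1l1 in ISch against IS (0.0980), female Slc25a32 (0.0658), Aldh1l1 (0.0814) and Ahcyl2 (0.0923) in FIDch against FID, and the sex differences of Aldh1l1 (0.0556) and Ahcyl2 (0.0759). It also ended the calls at the criterion of male Apip in FIDch against IS (p 0.0620), male Mri1 in FIDch against ISch (0.0600) and female Pemt in FID against IS (0.0592). DESeq2 ended those of Apip (0.104), Mri1 (0.0577) and male Aldh1l1 in FID against IS (0.0607), and Apip was also lost with all genes of at least 1 count (0.0584) and without the libraries named in another form (0.0784). The female interaction of Ggh came under the fold limit with DESeq2, RLE size factors or all genes of at least 1 count (0.20 each). DESeq2 gave 1 adjusted call, Ahcyl1 in the sex difference in FIDch against FID (adjusted p 0.0379, range over alternatives 0.0379 to 0.281), where edgeR gave 0. Leaving out each library gave 0 to 1 members in male ISch against IS and FIDch against FID, 0 to 2 in male FIDch against IS, and 0 to 1 in female FID against IS (Mtr, without FID replicate 1), ISch against IS (Mtrr, without IS replicate 2) and FIDch against IS (Mtr, without IS replicate 3 or FIDch replicate 2). Sex differences gave 0 to 1 in FID against IS (Mtr, without male IS replicate 3 or FID replicate 2) and in ISch against IS, 1 to 3 in FIDch against IS (Ahcy being the third, without male IS replicate 3) and 0 to 2 in FIDch against FID. The cause of these moves was not tested.

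Same-numbered libraries correlated over 0.1 in 4 of 48 pairs (-0.151 to 0.215), and the best-correlated library had the same number in 19 of 96 cases. The numbers thus showed no clear pairing, but weak pairing could go unseen in such a check. Depth limits Shmt1 in males most. For Mtr the counting error was 8.44% to 10.9% in the male groups, below its biological variation of 18.3% there. Male libraries hold fewer counts than female ones, gene lengths were not used, and with 4 rats a group no exact p can go below 0.029.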
